A study of Homo sapiens with 6 samples.

Results

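The early response of HepG2 cells to TGF-beta was read from 4 of 6 arrays of 1 series, the arrays taken after 1.5 h of TGF-beta and those taken at 0 h. HepG2 is a human hepatoblastoma line that retains many hepatocyte functions. Every culture had received an siRNA, which directs the cell to cut transcripts that pair with it, and the label was either HNF4a (siHNF4a) or control (siControl). HNF4A, a nuclear receptor, keeps liver genes active, and its own level was not analysed here. The groups were siHNF4a cells after 1.5 h of TGF-beta at 3 ng/ml, siControl cells after 1.5 h of the same dose, untreated siHNF4a cells (0 h) and untreated siControl cells (0 h), with 1 array in each. The 1.5 h array was set against the 0 h array of the same siRNA, which gave 2 pairs that share no array, called the siHNF4a arm and the siControl arm, and a gene was read as responding early when both arms moved in the same direction. The arrays at 24 h of TGF-beta, 1 per siRNA, entered the estimate of the spread and the values set beside those at 1.5 h. They moved the 1.5 h difference itself only in fits that left out a 0 h or 1.5 h array.

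No group had a replicate, and the labels did not say whether the arrays came from separate transfections. The p-values therefore measure only how far differences between these 6 arrays disagree, with each gene's spread taken mostly from genes of similar signal. No array was taken at 1.5 h without TGF-beta, and the effect of TGF-beta cannot be told apart from that of 1.5 h more in culture. With 1 siRNA label per arm, effects on transcripts other than the target were not separated. In bulk RNA, fewer cells expressing a transcript and less of it per cell cannot be told apart either.

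TGF-beta binds a pair of receptor kinases that phosphorylate SMAD2 and SMAD3, which then enter the nucleus with SMAD4 and act on genes together with other transcription factors. The first genes to respond need no new protein, and many of them encode transcription factors or inhibitors that limit the pathway itself. In epithelial cells TGF-beta is known for arresting growth, in part by lowering MYC, and for the later loss of epithelial character and build-up of matrix.

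The values were MAS5 signals, intensities on a linear scale that the authors scaled to the same trimmed mean, 100, on every array. A signal is given for each gene from 1 probe set, the set of short probes for a transcript, and signals of different genes are not comparable. Signals under 12.9, the median of all signals, were raised to that floor before log2 was taken, and 11921 of 19775 genes with a mean signal above it were tested. The trimmed mean was made equal by that scaling. The median signal (12.4 to 13.3) and the correlations between arrays (r = 0.944 to 0.986 across genes) showed little difference between arrays. The siControl 0 h array stood apart in the control probe sets of 18S rRNA. The 5' set read 8599.7 there and 69.8 to 736.5 on the other arrays, the middle set 1332.9 and 53.0 to 258.7, and the 3' set 461.9 and 87.6 to 151.9. Its GAPDH 3' to 5' ratio was 0.888, against 0.946 to 0.977 on the others. By the ACTB ratio it did not stand apart, with 1.28 on both 0 h arrays and 1.17 to 1.26 on the rest. The results that moved when this array was left out are given with both values. Without it, only the siHNF4a arm set 1.5 h against 0 h. All 8 hepatocyte markers were above the floor on all 4 arrays, with summed signals of 48038.3 to 49740.8 at 1.5 h and 44155.1 to 47244.3 at 0 h. Markers of other cell types were dim. The summed signals of 4 blood markers were 40.6 to 58.8 at 1.5 h and 62.6 to 82.2 at 0 h, those of 3 endothelial markers 60.6 to 85.0 and 51.0 to 69.9, and those of 4 fibroblast markers 36.6 to 78.4 and 60.9 to 72.2. PTPRC (blood), VWF and CDH5 (endothelium) and DCN (fibroblasts) did not exceed the floor on any of the 4 arrays. The endothelial marker PECAM1 (47.0 to 81.8) and the blood marker CD14 (13.9 to 33.8) exceeded it on all 4, the fibroblast markers COL1A2 and PDGFRB on 3, HBB and THY1 on 2 and CD3E on 1.

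Few genes were called at 1.5 h, and most of those called rose. In the limma fit over both siRNAs, 10 of 11921 genes rose at 1.5 h (0.0839%) and 2 fell (0.0168%), 12 in all (0.101%), at an adjusted p under 0.05. JUNB, RND1, GADD45B, DDIT4, BHLHE40, EDN1, DLX2, HES1, KLF10 and SMAD7 rose, and MYC and TMEM184C fell. For each of the 12, both 1.5 h signals lay on the same side of both 0 h signals, as they did for 2688 of all tested genes (22.5%), so this separation alone marks no gene. At 24 h the same fit called 1793 genes (15.0%). The count rested on single arrays and on the processing. It was 26 without the siControl 0 h array (16 higher, 10 lower), 21 without the siHNF4a 0 h array (15 higher, 6 lower), 7 without the siControl 1.5 h array and 8 without the siHNF4a 1.5 h array. No gene was called when a gene's probe sets were averaged, when dim genes were kept, when limma's variance trend was left out or when the siRNA was left out of the model. Those fits gave 178 to 571 genes with an unadjusted p under 0.05. The fit reported here gave 364, which is 3.05% of the genes tested and a smaller share than the threshold of 0.05 itself.

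**Figure D1:**
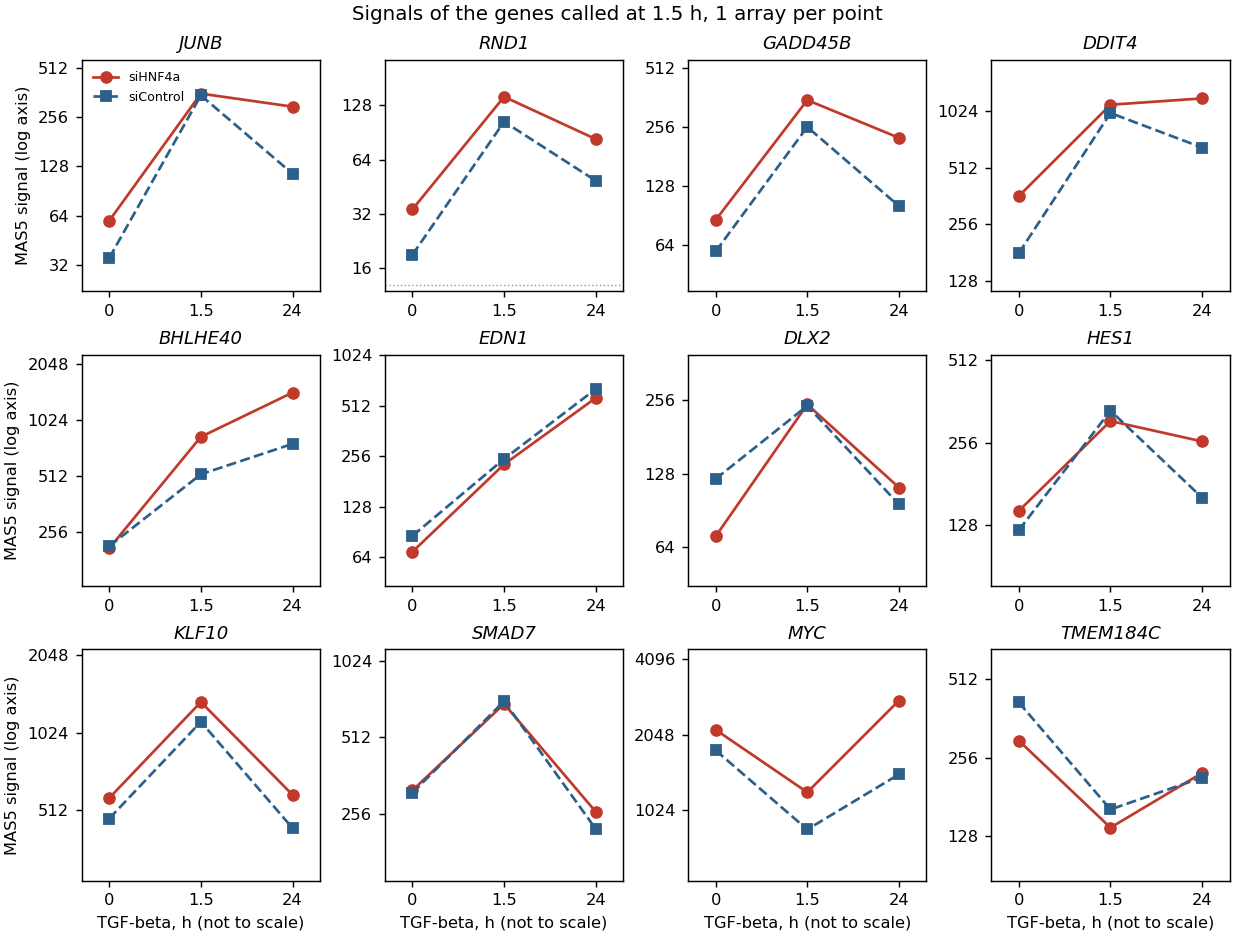
MAS5 signal (log axis) of the 12 called genes, 1 panel per gene, at 0, 1.5 and 24 h of TGF-beta, with 1 line per siRNA and 1 array per point. In each panel both 1.5 h points lie above both 0 h points for the 10 genes that rose and below them for MYC and TMEM184C.

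Of the 12 called genes, KLF10 and SMAD7 had the smallest gaps between the arms. SMAD7, an inhibitory Smad that blocks the receptors, had signals of 693.0 in siHNF4a and 710.3 in siControl cells at 1.5 h, against 316.3 and 309.4 at 0 h. Its 1.5 h signals were more than 2-fold above the 0 h signals in both arms, a log2 difference of 1.17 ± 0.15 (SE; 2.24-fold; limma adjusted p = 0.00266), and the arms differed by -0.07 (siHNF4a minus siControl). KLF10, a zinc-finger repressor first described as a TGF-beta-inducible early gene, had signals of 1346.3 in siHNF4a and 1128.2 in siControl cells at 1.5 h, against 571.5 and 475.9 at 0 h. It rose by 1.24 ± 0.13 (SE; 2.36-fold; limma adjusted p = 3.4e-04), and the arms differed by -0.01. The SMAD7 call was lost without the siControl 1.5 h array (difference 1.08) or without the siHNF4a 1.5 h array (1.25).

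SKIL and TGIF1, co-repressors that restrain Smads, did not pass the test. SKIL had signals of 737.9 in siHNF4a and 695.9 in siControl cells at 1.5 h, against 487.6 and 464.9 at 0 h, a difference of 0.59 ± 0.13 (SE; limma adjusted p = 0.248). TGIF1 had 952.3 in siHNF4a and 591.4 in siControl cells at 1.5 h, against 682.2 and 418.9 at 0 h. For TGIF1 the siControl 1.5 h signal was below the siHNF4a 0 h signal, so the times overlapped, and both arms differed by about the same amount (mean 0.49). Of the 32 tested genes listed as Smad feedback genes or direct targets, 4 rose (JUNB, GADD45B, KLF10 and SMAD7) and none fell. Their median difference was 0.14, against -0.01 over all tested genes, and 15 of the 32 were higher in both arms, where 19.8% of all tested genes were. Several of these targets are known as slower ones. PMEPA1, an inhibitor of Smad activation, had 21.9 in siHNF4a and 7.8 in siControl cells at 1.5 h, against 17.0 and 2.6 at 0 h, and 279.8 in siHNF4a and 75.3 in siControl cells at 24 h.

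The receptors and Smads that carry the signal showed small differences. Of 14 tested genes of this kind none rose or fell, and their differences ran from -0.09 to 0.25. The 6 genes encoding signalling Smads (SMAD1, SMAD2, SMAD3, SMAD4, SMAD5 and SMAD9) lay between -0.08 and 0.25, and none of them had the same direction in both arms.

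Among transcription factors JUNB had the largest difference. JUNB, a subunit of the AP-1 factor, had signals of 355.3 in siHNF4a and 346.7 in siControl cells at 1.5 h, against 59.8 and 35.5 at 0 h. The 1.5 h signals were nearly equal and the 0 h signals were not, and JUNB rose by 2.93 ± 0.26 (SE; 7.62-fold; limma adjusted p = 7.7e-05). None of the 5 other FOS and JUN genes tested was called or higher in both arms, and their differences ran from -0.20 to 0.15. Of the 13 tested AP-1 and ATF genes, JUNB was the only one that rose and none fell (median -0.02). Over all tested genes, 19.8% were higher in both arms. Among 19 other immediate-early transcription factors and related genes none was called and 12 were higher in both arms, with a median of 0.19, and 1 of them rose without the siControl 0 h array.

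DLX2, a homeobox factor, had signals of 246.1 in siHNF4a and 242.9 in siControl cells at 1.5 h, against 70.7 and 121.7 at 0 h. It rose by 1.40 ± 0.24 (SE; 2.64-fold; limma adjusted p = 0.0417), the weakest of the 12 calls. It was lost without the siControl 1.5 h array (1.55), the siHNF4a 0 h array (0.94), the siHNF4a 1.5 h array (1.25) or either 24 h array (1.40).

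The helix-loop-helix repressors block other factors from DNA or bind it themselves, and BHLHE40 and HES1 rose among them. BHLHE40, a repressor that also acts on the circadian clock, had signals of 833.3 in siHNF4a and 523.5 in siControl cells at 1.5 h, against 209.0 and 214.4 at 0 h. It rose by 1.64 ± 0.19 (SE; 3.12-fold; limma adjusted p = 6.1e-04). HES1, a repressor best known as a Notch target, had 307.2 in siHNF4a and 335.1 in siControl cells at 1.5 h, against 144.4 and 122.8 at 0 h, and rose by 1.27 ± 0.20 (SE; 2.41-fold; limma adjusted p = 0.0201). Neither gene's signals overlapped between the times. The BHLHE40 call was lost without the siHNF4a 1.5 h array (1.53). The HES1 call was lost without the siControl 1.5 h array (0.98), the siHNF4a 1.5 h array (1.56) or either 24 h array (1.27).

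HEY1, a further Notch target repressor, had signals of 262.5 in siHNF4a and 189.1 in siControl cells at 1.5 h, against 100.6 and 111.7 at 0 h. These did not overlap, but the difference of 1.07 ± 0.21 did not pass (limma adjusted p = 0.116). It passed without the siControl 0 h array (1.40), and also with the floor at the 75th percentile or with a mean signal above 4 floors required. ID1, whose product sequesters helix-loop-helix factors and is a classic target of the related BMP ligands, had 9462.3 in siHNF4a and 7703.0 in siControl cells at 1.5 h, against 5439.8 and 6072.1 at 0 h. Its difference of 0.57 ± 0.11 did not pass (limma adjusted p = 0.0869). It passed without the siControl 0 h array (0.77), under the same 2 settings as HEY1 and with a pseudocount equal to the floor. All 4 ID genes were higher at 1.5 h in both arms, where 19.8% of all tested genes were, and none was called. Their differences ran from 0.14 for ID4, whose times overlapped, to 0.57 for ID1. In all, 2 of 11 tested genes of the helix-loop-helix list rose and none fell, 8 were higher in both arms, and the median was 0.42. Leaving out the siControl 0 h array gave 4 rises among the 11, and leaving out the siHNF4a 1.5 h array gave none. Of 16 Notch and Wnt pathway genes HES1 alone rose, with a median of 0.12, and without the siControl 0 h array 2 rose.

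GADD45B and DDIT4, with roles in stress signalling and growth control, had the third and the fourth largest difference. GADD45B, which activates the p38 kinase cascade, had signals of 351.1 in siHNF4a and 256.0 in siControl cells at 1.5 h, against 85.8 and 59.3 at 0 h. It rose by 2.07 ± 0.22 (SE; 4.20-fold; limma adjusted p = 3.4e-04), and the arms differed by -0.08. DDIT4, an inhibitor of the growth kinase complex mTORC1, had 1109.8 in siHNF4a and 1002.7 in siControl cells at 1.5 h, against 362.1 and 179.8 at 0 h. The times did not overlap for either gene, and DDIT4 rose by 2.05 ± 0.18 (SE; 4.13-fold; limma adjusted p = 7.7e-05), with the arms -0.86 apart. These were the only 2 of 16 tested stress-response genes that rose, none fell, and the list's median was -0.04. Leaving out the siControl 0 h array gave 2 rises and 2 falls among the 16.

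RND1, whose product loosens actin fibres and cell contacts, had signals of 143.0 in siHNF4a and 103.9 in siControl cells at 1.5 h, against 33.8 and 18.9 at 0 h. It rose by 2.27 ± 0.26 (SE; 4.82-fold; limma adjusted p = 6.1e-04), without overlap. Of 14 tested small GTPases and exchange factors it was the only one called (median 0.05). RHOB, which was not called, also had both 1.5 h signals above both 0 h signals. The RND1 call was lost without the siControl 1.5 h array (2.10). EDN1, the secreted vasoconstrictor endothelin-1, had 228.9 in siHNF4a and 246.4 in siControl cells at 1.5 h, against 69.1 and 85.9 at 0 h, and rose by 1.62 ± 0.17 (SE; 3.08-fold; limma adjusted p = 3.4e-04). It was the only one of 18 tested secreted vascular and growth signals that rose, and none fell (median 0.12). Leaving out the siControl 0 h array gave 2 rises among the 18.

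MYC, the growth-promoting transcription factor that TGF-beta is known to repress, was 1 of the 2 genes that fell. Its signals were 1206.2 in siHNF4a and 857.3 in siControl cells at 1.5 h, against 2140.1 and 1773.0 at 0 h. It fell by 0.94 on the log2 scale (SE 0.14; 0.522-fold; limma adjusted p = 0.0141), to a similar extent in both arms (-0.83 in siHNF4a and -1.05 in siControl cells), without overlap. None of the other members of the list of 11 tested MYC and MAX partners was called, and the list's median was -0.02. The cell cycle inhibitors and G1 cyclins, of which 11 were tested, held no call either (median 0.08). CDKN2B and CDKN1A encode inhibitors through which TGF-beta is known to halt the cycle. CDKN2B differed by -0.12 in siHNF4a and by 0.41 in siControl cells, and CDKN1A had 714.0 in siHNF4a and 682.9 in siControl cells at 1.5 h, against 774.5 and 691.3 at 0 h. The times overlapped for CDKN1A.

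TMEM184C, which encodes a membrane protein, had signals of 137.9 in siHNF4a and 162.0 in siControl cells at 1.5 h, against 297.9 and 417.8 at 0 h. It fell by 1.24 on the log2 scale (SE 0.18; 0.424-fold; limma adjusted p = 0.0104) and did not overlap. The MYC call was lost without the siControl 1.5 h array (-1.0) or the siHNF4a 1.5 h array (-0.87). The TMEM184C call was lost without any 1 array but the siHNF4a 0 h array, with differences of -1.25 to -1.04. The value of -1.04 was that without the siControl 0 h array.

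RefSeq promoter windows on GRCh38.p14, 300 bases each from 250 before the transcription start, were given for 9 of the 12 called genes in the table used. They were searched on both strands for 5 motifs. GTCTAGAC, the palindromic Smad-binding element, was in none of the 9 and in 0.123% of the windows of 9736 tested genes. CAGACA, which holds the Smad box letters AGAC, was in 3 of 9 windows, those of BHLHE40, DLX2 and TMEM184C, and in 12% of the tested genes' windows. The AP-1 motif TGAGTCA was in none of the 9 and in 2.95% of the tested genes' windows. The cyclic AMP response motif TGACGTCA was in none and in 3.29% of the tested genes' windows. CACGTG, the E-box that MYC and BHLHE40 bind, was in 3 (GADD45B, BHLHE40 and DLX2) and in 10.3%. A match is a description of these letters only, and the absence of one concerns this window alone. The windows with CAGACA are printed below with that motif in capitals. Beside them are those of JUNB, the gene with the largest rise, and SMAD7, the inhibitory Smad, which hold no CAGACA. The SMAD7 window does hold the shorter letters AGAC, as does the BHLHE40 window outside its capitals. These shorter letters were not among the motifs searched and their share over other windows was not counted, so nothing is read from them. In gene orientation, BHLHE40 lies at chr3:4979187-4979486 (+), DLX2 at chr2:172102851-172103150 (-), TMEM184C at chr4:147617147-147617446 (+), JUNB at chr19:12791236-12791535 (+) and SMAD7 at chr18:48950916-48951215 (-).
BHLHE40: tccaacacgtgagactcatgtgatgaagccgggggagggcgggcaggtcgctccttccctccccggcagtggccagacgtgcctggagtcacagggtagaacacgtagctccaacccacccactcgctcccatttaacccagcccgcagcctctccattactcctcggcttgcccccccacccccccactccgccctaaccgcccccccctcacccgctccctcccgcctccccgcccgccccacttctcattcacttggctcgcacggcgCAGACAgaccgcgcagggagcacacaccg
DLX2: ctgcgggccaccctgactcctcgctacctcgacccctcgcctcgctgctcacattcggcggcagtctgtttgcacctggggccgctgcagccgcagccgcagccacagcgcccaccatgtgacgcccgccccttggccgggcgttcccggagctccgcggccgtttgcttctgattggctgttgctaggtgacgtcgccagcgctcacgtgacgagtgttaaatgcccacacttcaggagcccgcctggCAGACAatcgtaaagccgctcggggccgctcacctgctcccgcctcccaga
TMEM184C: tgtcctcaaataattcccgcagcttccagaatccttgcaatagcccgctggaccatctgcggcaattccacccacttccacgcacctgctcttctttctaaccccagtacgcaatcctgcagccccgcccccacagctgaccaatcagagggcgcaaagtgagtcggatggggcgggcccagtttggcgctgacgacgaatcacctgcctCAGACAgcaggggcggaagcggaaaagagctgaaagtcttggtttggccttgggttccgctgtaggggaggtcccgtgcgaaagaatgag
JUNB: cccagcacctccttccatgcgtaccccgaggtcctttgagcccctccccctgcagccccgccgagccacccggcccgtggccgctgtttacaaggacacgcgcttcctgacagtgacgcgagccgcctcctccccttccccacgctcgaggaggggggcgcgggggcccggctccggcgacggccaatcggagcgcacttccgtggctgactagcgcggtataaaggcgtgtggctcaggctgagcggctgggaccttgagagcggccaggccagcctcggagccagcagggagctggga
SMAD7: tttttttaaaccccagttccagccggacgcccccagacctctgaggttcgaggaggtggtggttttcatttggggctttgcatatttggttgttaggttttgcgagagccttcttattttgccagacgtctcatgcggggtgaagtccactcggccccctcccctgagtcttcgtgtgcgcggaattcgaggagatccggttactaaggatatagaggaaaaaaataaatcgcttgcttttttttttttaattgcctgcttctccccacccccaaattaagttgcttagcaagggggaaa
The capitals begin at window base 272 in BHLHE40, 250 in DLX2 and 211 in TMEM184C.

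The direction of the called genes was also read from their other probe sets. The 12 genes had 9 further probe sets, of which 6 exceeded the floor on at least 2 of the 4 arrays, and all 6 had the direction of the probe set used. For GADD45B the other bright probe sets gave 1.98 and 1.91, beside 2.07 in the one used. EDN1 had 1.75 in a further probe set, beside 1.62, HES1 had 1.10, beside 1.27, and BHLHE40 had 1.40, beside 1.64. The widest gap was in DLX2, with 0.83 in a further probe set, beside 1.40. The other 3 probe sets were dim, and 7 of the genes had a single probe set.

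**Figure D2:**
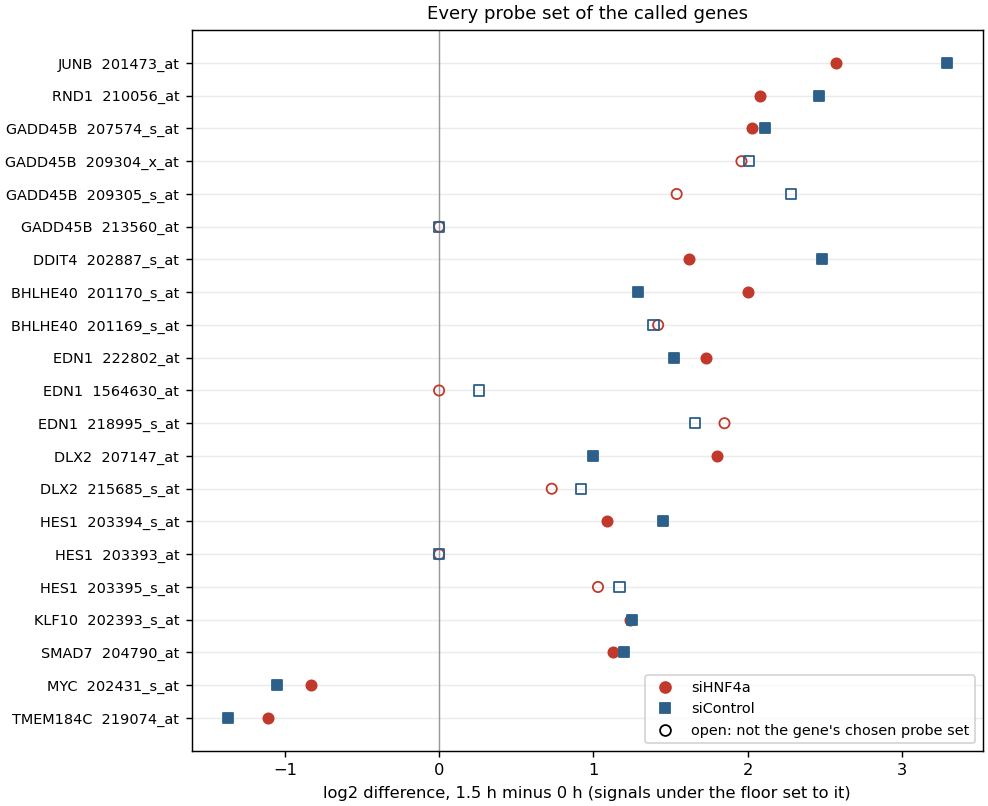
Log2 difference between 1.5 h and 0 h in each arm for every probe set of the called genes, 1 row per probe set, filled for the probe set used and open for the others (red circles siHNF4a, blue squares siControl). The 6 other probe sets above the floor lie on the same side of 0 as the one used, and the 3 dim ones lie at or near 0.

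The arms served as each other's check, and over all genes most differences did not have the same direction in both. Of the 11921 tested genes, 2360 were higher at 1.5 h in both arms (19.8%), 2677 were lower in both (22.5%), together 5037 (42.3%). Opposite directions were seen in 6559 (55.0%), and 325 had no difference in an arm (2.73%). At least a 2-fold difference was seen in the siHNF4a arm for 64 genes that were higher (0.537%) and 175 that were lower (1.47%). In the siControl arm 116 were higher (0.973%) and 86 lower (0.721%). Of these, 45.2% of the siHNF4a genes and 45.5% of the siControl genes had the same direction in the other arm. Past 2-fold the same way in both were 20 genes (0.168%), 13 higher (0.109%) and 7 lower (0.0587%). This is 8.37% of the siHNF4a genes and 9.90% of the siControl genes. A further 14 of the 11921 genes were past 2-fold in both arms but in opposite directions. All 4 arrays were above the floor for 12 of the 20, and 10 of the 20 were called.

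Genes past 2-fold in a single arm were mostly dim. Among 3045 genes with a mean signal of 12.9 to 50, 184 passed 2-fold in the siHNF4a arm and 153 in the siControl arm, but 8 in both. Among 2576 genes above 500, 3 and 6 passed, and 3 did so in both. The SD of the differences was 0.51 in each arm for the dimmest genes and 0.20 in each for the brightest. Within every signal range the arms' differences had a correlation across genes of -0.13 to -0.04, in which no arrays are shared between arms but genes are not independent of each other.

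**Figure D3:**
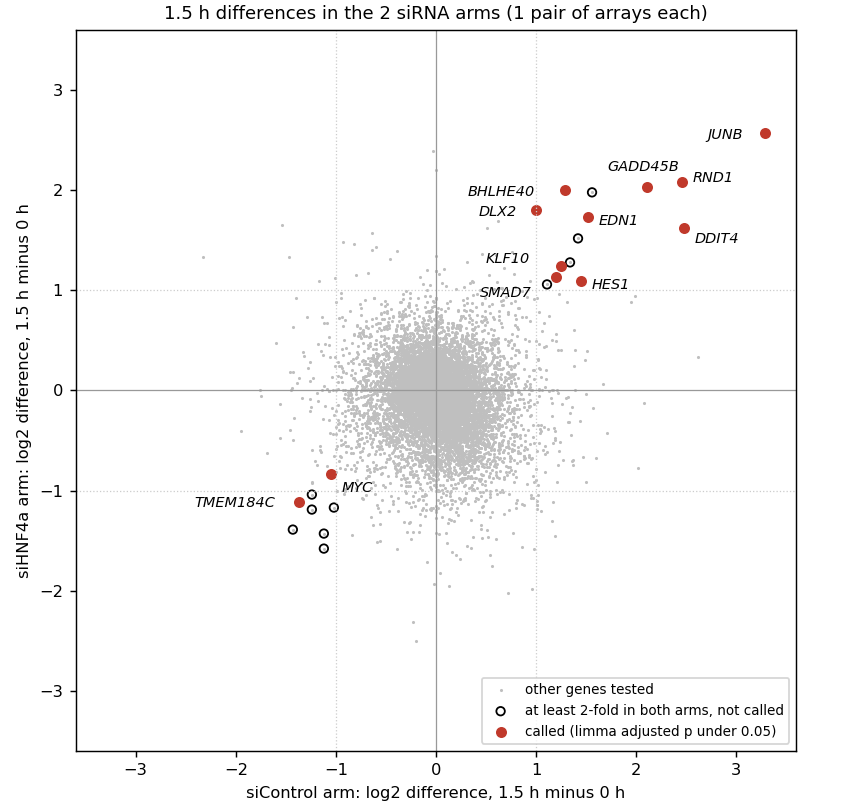
Log2 difference between 1.5 h and 0 h in the siHNF4a arm (y axis) and the siControl arm (x axis) for the 11921 tested genes. Red points are the 12 called genes, open circles are genes at 2-fold or more in both arms that were not called, and the grey cloud of other genes shows no common slope.

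Several genes met the 2-fold mark without passing the test. SOCS3, a feedback inhibitor of cytokine receptors, had signals of 61.9 in siHNF4a and 38.0 in siControl cells at 1.5 h, against 15.7 and 9.8 at 0 h. The last of these lay under the floor, and the fitted difference of 1.77 ± 0.35 did not pass (limma adjusted p = 0.116). ZNF597, a zinc-finger gene, had 90.2 in siHNF4a and 82.9 in siControl cells at 1.5 h, against 37.1 and 32.7 at 0 h, a difference of 1.31 ± 0.26 (limma adjusted p = 0.116). Neither gene's times overlapped. HBB, a haemoglobin chain and a blood marker, read 4.9 in siHNF4a and 3.6 in siControl cells at 1.5 h, both under the floor, against 33.9 and 34.8 at 0 h. Of the 17 tested genes of NF-kB feedback and cytokines, SOCS3 included, none was called and the median was -0.04, and 1 rose without the siHNF4a 0 h array.

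HEY1 and ID1 aside, the named genes DUSP1, ZFP36, CCN1 and CITED2 passed only when the siControl 0 h array was left out. In that fit the siControl arm had no 0 h signal, so agreement of the arms could not be asked for. limma's prior degrees of freedom were infinite in it, and each gene's spread was that of the trend over all genes. DUSP1, a phosphatase that ends MAP kinase signals, had a difference of 0.81 and was not called, and it passed without that array (1.20). ZFP36, which speeds the decay of cytokine mRNAs, had signals of 195.2 in siHNF4a and 258.6 in siControl cells at 1.5 h, against 103.8 and 131.3 at 0 h. Its times did not overlap and its difference was 0.94, with 0.91 in siHNF4a and 0.98 in siControl cells. Without that array the fit gave 1.20, above both arms, as the 24 h arrays then entered the value. CCN1, a matrix-bound signalling protein, had 0.45, and passed at 0.75 without that array. CITED2, a co-regulator that binds p300, had -0.91, and passed at -1.13 without it. All 3 tested ZFP36-family genes were higher in both arms, where 19.8% of all tested genes were. Their differences were 0.44 to 0.94, and none was called.

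**Figure D4:**
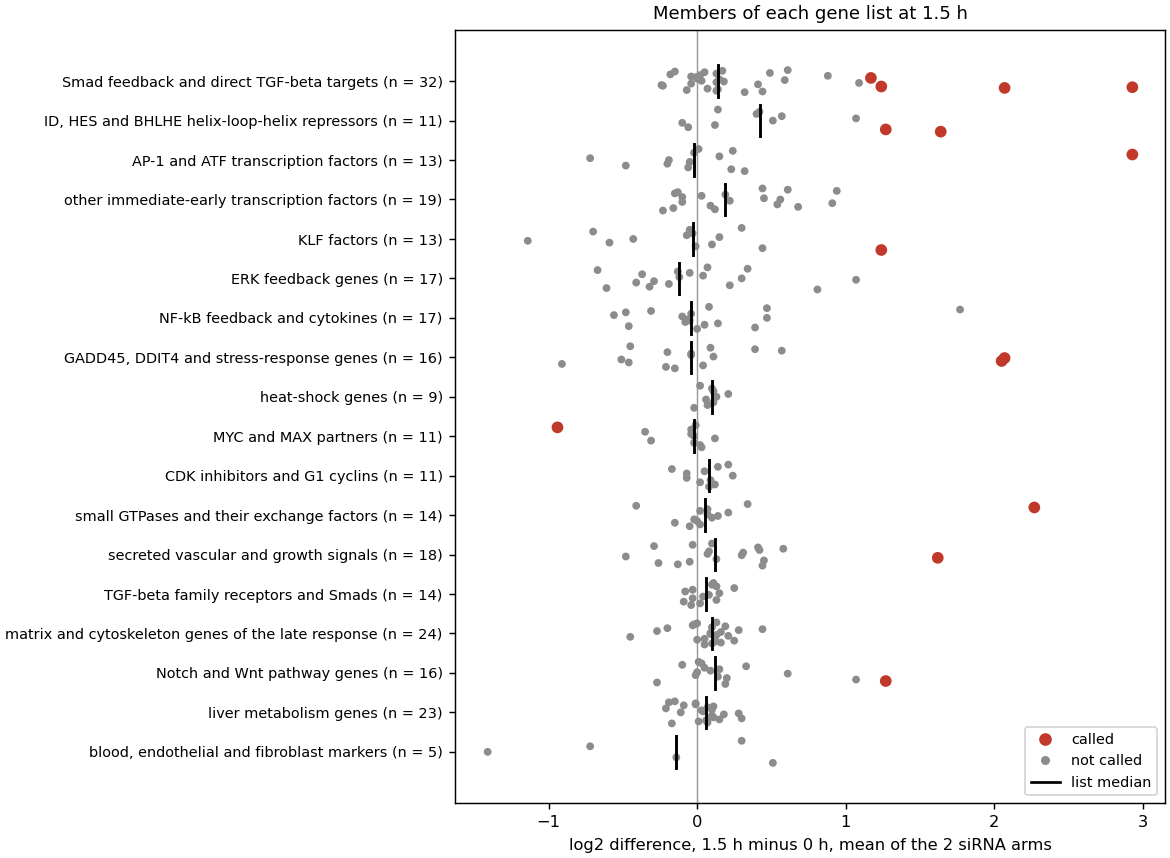
Mean log2 difference between 1.5 h and 0 h over both arms for the tested members of each of 18 gene lists, 1 row per list, with called genes marked and the median of each list drawn. The called genes stand at the ends of their rows, and the medians lie between -0.14 and 0.42.

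The other lists held few calls or none. Over all tested genes, 19.8% were higher and 22.5% lower in both arms. The 13 KLF factors held KLF10 as their only rise, with KLF6 at -0.70 and KLF16 at -1.14, both short of the threshold (median -0.03). KLF16 was dim (17.5 to 48.3), and its difference ran from -1.42 to -0.04 under other processing or with arrays left out. That of KLF6 ran from -0.91 to -0.49. Of 17 ERK feedback genes none was called, 5 were higher and 7 lower in both arms (median -0.12), and 1 rose without the siControl 0 h array. The 9 heat-shock genes gave 5 higher in both arms and none lower (median 0.10). The late matrix and mesenchymal genes, of which 24 were tested, were not called at this time (median 0.10), nor were 23 genes of liver metabolism, whose differences ran from -0.21 to 0.30. The 5 tested markers of blood, endothelial and fibroblast cells had a median of -0.14 and no call.

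The called genes took different courses between 1.5 and 24 h. Both differences use the same 0 h arrays, so they are given side by side without a test between them. BHLHE40 and EDN1 were higher still at 24 h, with differences of 2.31 ± 0.19 and 2.97 ± 0.17, beside 1.64 and 1.62 at 1.5 h. Signals of EDN1 at 24 h were 567.8 in siHNF4a and 641.8 in siControl cells. JUNB (2.01), DDIT4 (1.80), RND1 (1.33) and GADD45B (1.08) had smaller mean differences at 24 h than at 1.5 h and passed the test at both times. In siHNF4a cells alone DDIT4 read 1199.6 at 24 h, above its 1109.8 at 1.5 h. SMAD7 and KLF10 were near or below their 0 h signals at 24 h. SMAD7 read 260.5 in siHNF4a and 222.9 in siControl cells at 24 h, a difference of -0.38 ± 0.15 from 0 h, and KLF10 read 588.1 in siHNF4a and 436.9 in siControl cells, a difference of -0.04 ± 0.13. DLX2 (0.16), HES1 (0.62) and MYC (0.03) did not pass at 24 h either. For DLX2 and MYC these means join opposite directions, higher than at 0 h in siHNF4a cells and lower in siControl cells. MYC read 2796.7 in siHNF4a and 1421.6 in siControl cells at 24 h, against 2140.1 and 1773.0 at 0 h. DLX2 read 112.2 in siHNF4a and 95.6 in siControl cells, against 70.7 and 121.7. TMEM184C was called at both times, with -0.69 at 24 h. Thus 7 of the 12 early genes were also called at 24 h, where 15.0% of all tested genes were. The shared 0 h arrays enter both calls.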

How the data were processed

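Total RNA of HepG2 cells was labelled with biotin and measured on 6 Affymetrix arrays, 1 per combination of siRNA and time. The files deposited hold linear intensities, which the authors computed with MAS5 5.0 and GCOS, per the submitters' processing notes. Signals were used as deposited, without further scaling, and the arrays' number limits the precision. Of 54675 probe sets, 41097 had 1 gene symbol in the platform annotation, and the rest (1801 with several, 11777 with none) were named by none. Each gene was read from its brightest probe set, by the mean of its 6 signals.

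Signals were floored at 12.9 and log2 was taken. The siRNA and time were terms in limma 3.58.1 (R 4.3.3; lmFit, and eBayes with trend) over 6 arrays, with 2 residual degrees of freedom and Benjamini-Hochberg adjustment at 0.05 over all 11921 genes. The siRNA was the pairing of the arms. Beside the 2 residual degrees of freedom limma used 12.6 prior ones, so a gene's spread came mostly from genes of similar signal. Since no group had a replicate, a true dependence of the TGF-beta response on the siRNA counts as error. The script was tested on simulated data.

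The comparison, the 18 gene lists and the rule for named genes were chosen with earlier results of these data known. Named were every called gene, the 10 highest and 10 lowest genes above the floor on all 4 arrays with the same sign in both arms, ranked by the smaller of their arm differences, up to 3 members per list, and SMAD7, SKIL, ID1, JUNB, KLF10 and MYC. Other genes of the lists and the genes with opposite arms were picked once values had been seen. The level of HNF4A is not reported here. Alternatives were other normalizations, floors, probe set rules, filters and model terms, and leaving out each array or the 24 h pair. Promoter windows came from RefSeq (GRCh38.p14). Figures were drawn with matplotlib 3.10.9.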

Additional observations from a re-analysis of the deposited data

Results flagged for a closer look

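Of the 14 genes that differed by at least 2-fold in opposite directions in the arms, 5 had all 4 arrays above the floor. This difference between the arms was not tested. PLEKHG2 had signals of 69.8 in siHNF4a and 27.8 in siControl cells at 1.5 h, against 27.8 and 77.1 at 0 h, a gap of 2.80 on the log2 scale (siHNF4a minus siControl). NALT1 had 34.6 in siHNF4a and 14.3 in siControl cells at 1.5 h, against 16.2 and 32.2 at 0 h, a gap of 2.27. SFTPC had 28.2 in siHNF4a and 21.5 in siControl cells at 1.5 h, against 13.0 and 43.3 at 0 h, a gap of 2.13. PSTPIP1 had 15.8 in siHNF4a and 38.8 in siControl cells at 1.5 h, against 34.2 and 17.2 at 0 h, a gap of -2.29. LOC100128653 had 15.9 in siHNF4a and 33.5 in siControl cells at 1.5 h, against 35.0 and 16.6 at 0 h, a gap of -2.15. These are single arrays and all the signals were dim, from 13.0 to 77.1.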

How the results depend on the processing

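With 1 array per group and 2 residual degrees of freedom, calls depended on the processing, and the cause of each change was not tested. Against 12 genes called, 7 were called without probe sets ending in _x_at or _s_at (6 of the 12 among them), and 0 with probe sets averaged per gene (357 at an unadjusted p under 0.05), without a filter on dim genes (571), without the trend (487) or without the siRNA term (178). Leaving out 1 array at a time gave 7 to 26 calls. Without either 0 h array, limma's prior degrees of freedom were infinite, so each gene's spread was that of the trend over all genes. The other alternatives gave 9 to 15. Genes at 2-fold in both arms numbered 20, against 50, 12 and 9 with the floor at the 40th, 60th and 75th percentile, 13 with the mean of probe sets and 11 with a mean signal above 4 floors. Over the 57 named genes and 19 alternatives, 920 values kept their direction and their side of the threshold, 73 lost the call, 11 gained it and 10 reversed. ADH4 turned to 0.05 without the siControl 1.5 h array and 0.07 without the siHNF4a 0 h array (-0.41 to 0.07 over single arrays left out). CDC25A turned to -0.02 and HSPD1 to -0.14 with the mean of probe sets. CDKN2A turned to 0.15, DUSP8 to -0.10 and HSPD1 to -0.04 without probe sets ending in _x_at or _s_at. MMP2, at -0.27, turned to 0.25 without the siControl 0 h array and 0.40 without the siHNF4a 1.5 h array (-0.94 to 0.40). PLAU turned to -0.01 without the siControl 1.5 h array (-0.01 to 0.89). None of these reversed genes was called. No paired analysis by replicate number was possible because the labels give no replicate numbers, and the siRNA paired the arms instead. Dim signals limit what can be read, since the arms' differences had an SD of 0.51 below a mean signal of 50.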
